A study of Mus musculus with 21 samples.

Results

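Transcripts of heat shock proteins and co-chaperones were followed through blood stem and progenitor cells of mice with and without Phf6, a gene for a chromatin-associated zinc finger protein. The set held 10 genes, each found by its symbol, through the Ensembl gene ID, in 1 of the 54446 rows of the deposited count table. Hspa1a and Hspa1b encode the stress-inducible HSP70, and Hspa8 encodes its constitutive relative. Hsph1 encodes an HSP110 that exchanges nucleotide on HSP70, and Dnajb1 an HSP40 co-chaperone that hands substrates to HSP70. Hsp90aa1 encodes the inducible form of cytosolic HSP90, and Hspb1 a small heat shock protein. Hspd1 and Hspe1 encode the chaperonin and co-chaperonin that fold proteins in the mitochondrial matrix, and Hsf1 encodes the transcription factor that drives the heat shock response. The list was drawn up with results of these data in view, so the make-up of the list is not a result, and no value is given for the list as a score.

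In unstressed cells, HSF1 is held inactive by chaperones. Unfolded protein draws those chaperones away, HSF1 then forms trimers that bind arrays of inverted GAA units in promoters, and the inducible chaperone genes are switched on within minutes and off again once folding is restored. Blood stem cells are known to make protein slowly and to be sensitive to misfolded protein.

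The cells were long-term haematopoietic stem cells (LT-HSC) and the multipotent progenitors MPP2 and MPP3. They came from bone marrow of C57BL/6 mice aged 12 weeks, with 100 to 200 cells sorted for each library after staining for CD48, CD150, cKit, Sca-1 and lineage markers. Phf6 knockout (KO) mice gave 3 LT-HSC, 4 MPP2 and 4 MPP3 libraries, and wild-type (WT) mice gave 2 LT-HSC, 4 MPP2 and 4 MPP3 libraries. The design of the KO allele, with any Cre, is not stated in the labels. Libraries are named by group and by the replicate number in the labels, so that KO MPP2 1 is replicate 1 of the KO MPP2 group. The titles carry a further number, which is 52 to 64 for the 12 libraries of replicates 1 and 2 and 162 to 212 for the 9 others. It runs on within a genotype and replicate, except that KO LT-HSC 3 (title number 212) follows the KO libraries of replicate 4. A replicate number may therefore stand for 1 mouse of each genotype, but no label says so.

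Total counts were 18892723 to 31611366 per library (median 26158938), and Phf6 had 43 to 395 counts in the 11 KO libraries, against 1545 to 5204 in the 10 WT libraries. Levels are given as CPM, in which counts are scaled by library size with TMM factors, and a count of 3 stood for 0.0985 to 0.194 CPM. Cd48 and Slamf1 followed the labelled populations, while Ly6a, the gene of Sca-1, was low in some progenitor libraries. Ly6a was 171 to 359 CPM in LT-HSC libraries, but went down to 5.74 CPM in KO MPP2 and 17.3 CPM in WT MPP2. The summed level of Kit and Ly6a was 401 to 1723 CPM in MPP2 replicates 1 and 2. In MPP2 replicates 3 and 4 that sum was 176 to 261 CPM. Cd48, which LT-HSC lack, was 5.57 to 19.1 CPM in LT-HSC libraries and at least 165 CPM in all MPP2 and MPP3 libraries, and Slamf1, the gene of CD150, was at most 1.99 CPM in MPP3. A set of 3 libraries stood apart from the other 18 in immunoglobulin, mitochondrial or ribosomal RNA counts. Immunoglobulin genes took 45.8% of the counts of KO MPP2 1 and 25.8% of KO MPP3 1, against at most 4.08% elsewhere, and KO MPP3 2 had 12.8% mitochondrial counts and 10.3% counts in ribosomal RNA genes, against at most 5.96% and 0.632% elsewhere. The sum of 7 neutrophil markers was 14960 CPM in KO MPP2 1, 4488 CPM in WT LT-HSC 2 and 1774 CPM in WT MPP3 1. Elsewhere that sum was at most 320 CPM. WT LT-HSC 2 and WT MPP3 1 are counted among the 18. In the 6 libraries of replicate 2, Xist had at most 131 counts and the Y-linked Ddx3y at least 2071, while the 15 other libraries had at least 1743 Xist counts and at most 3 of Ddx3y. The summed level of 8 LT-HSC markers was 709 CPM in KO MPP3 2, against 124 to 309 CPM in the other MPP3 libraries and 680 to 987 CPM in LT-HSC libraries, so that KO MPP3 2 goes against its label in these genes.

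All 10 genes passed the filter on low counts, and 9 of them had counts in every library. Averaged over the 21 libraries and divided by the joined length of all annotated exons, the level was 211 CPM per kilobase for Hspa8, 181 for Hspe1, 123 for Hsp90aa1 and 117 for Hspd1. Hspa1b had 60.3 CPM per kilobase, Dnajb1 36.3, Hspa1a 13.2, Hsf1 8.75 and Hsph1 7.59, and Hspb1 had 0.338. The joined exons of Hsf1 and Hsph1 have 7099 and 7266 bases, against 2104 and 3802 in their longest coding transcripts. Their place in this order therefore depends on the length used. The genes differed more in how far they varied. Between the highest and the lowest library, Hspa1b differed 170-fold in CPM, whereas Hsph1 differed 3.70-fold, Hspd1 2.86-fold, Hsp90aa1 2.82-fold, Hspe1 2.71-fold, Hsf1 2.63-fold, Dnajb1 2.13-fold and Hspa8 2.12-fold. Hspa1a went down to 2 counts in WT MPP2 3 and up to 4648 in WT LT-HSC 1. The biological coefficient of variation within groups, as edgeR estimated it, was 1.37 for Hspa1a and 1.20 for Hspa1b, but 0.216 to 0.282 for 7 of the others and 1.88 for the scarce Hspb1, against a median of 0.546 over all 21100 genes tested.

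**Figure D1:**
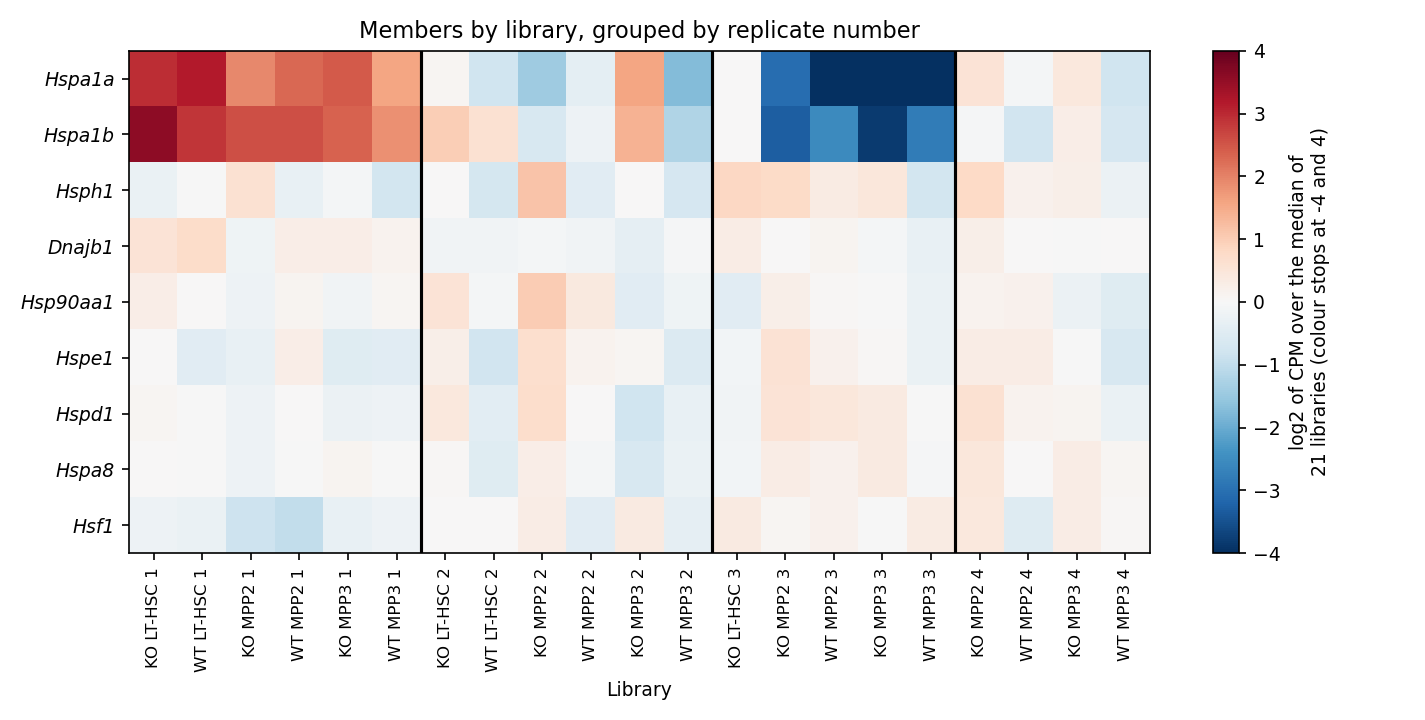
Each cell of the map is the level of 1 gene in 1 library, as log2 of its CPM over the median of the 21 libraries, with libraries grouped by replicate number; Hspb1, at 0 counts in 9 libraries, is left out. Hspa1a and Hspa1b are high in all 6 libraries of replicate 1 and low in 4 of the 5 of replicate 3, and the other genes stay closer to their median.

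The inducible HSP70 genes followed the replicate number of the library, in each of the 3 populations and in both genotypes. Hspa1b was at 808, 133 and 67.1 CPM in KO LT-HSC 1, 2 and 3, against 486 and 101.5 CPM in WT LT-HSC 1 and 2. In MPP2 it was at 399.8, 42.7, 6.81 and 65.0 CPM in KO replicates 1 to 4, against 404, 58.3, 11.5 and 39.9 CPM in WT. In MPP3 it was at 345.9, 175.9, 4.75 and 80.9 CPM in KO, against 239.7, 29.3, 9.58 and 42.3 CPM in WT. Replicate 1 was the highest library of its group in 6 of 6 groups, by 1.97-fold over the next in KO MPP3 and by 4.79-fold to 6.93-fold in the 5 others. Replicate 3 was the lowest in 5 of the 5 groups that have one, and KO and WT overlapped in every population.

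Taken by replicate number, Hspa1b ran from 239.7 to 808 CPM in replicate 1 (median 402, n = 6 libraries), from 29.3 to 175.9 in replicate 2 (n = 6, the highest being KO MPP3 2), from 4.75 to 67.1 in replicate 3 (n = 5) and from 39.9 to 80.9 in replicate 4 (n = 4). Replicate 1 did not overlap with any other number. KO LT-HSC 3, the highest of replicate 3 at 67.1 CPM, fell within the range of replicate 4, whose KO libraries precede it in the titles, and the 4 other libraries of replicate 3 were at 4.75 to 11.5 CPM. Hspa1a was likewise highest in replicate 1 and lowest in replicate 3 in each group that has them, with 53.4 to 163 CPM in replicate 1, 5.46 to 54.2 in replicate 2, 0.0657 to 18.1 in replicate 3 and 10.4 to 26.2 in replicate 4. Its range in replicate 1 met that of replicate 2 only through KO MPP3 2, at 54.2 CPM.

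**Figure D2:**
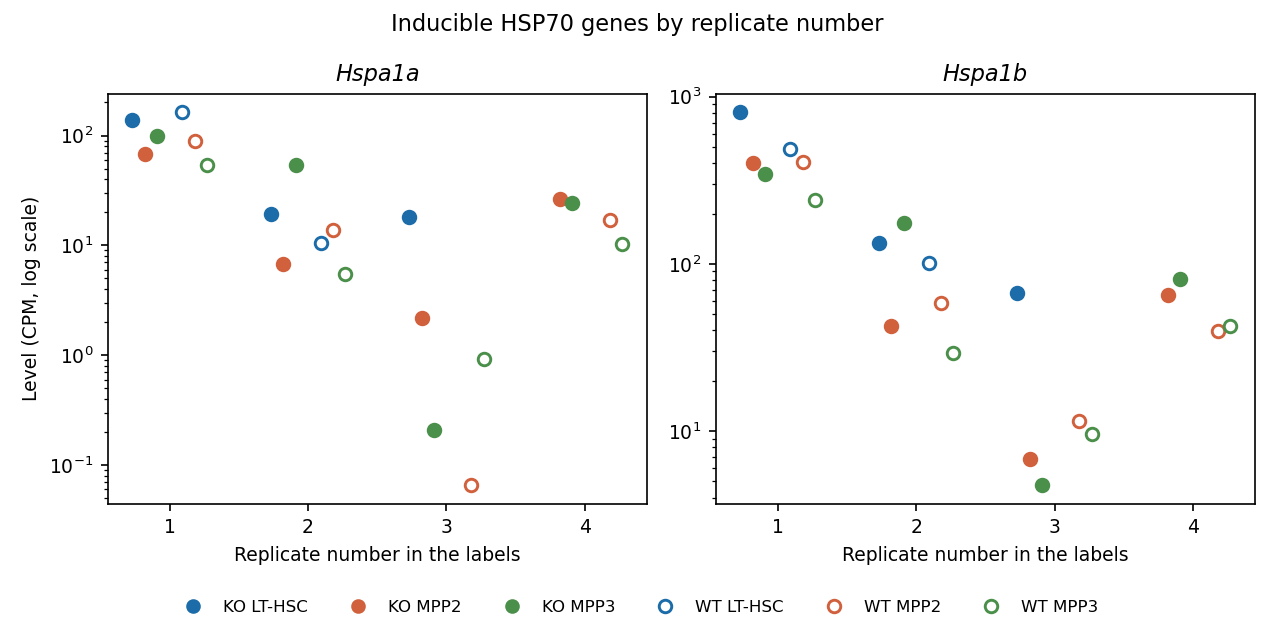
Levels of Hspa1a and Hspa1b (CPM, log scale) are plotted against the replicate number, with KO libraries filled and WT libraries open, coloured by population. For Hspa1b all 6 libraries of replicate 1 lie at 239.7 CPM or more and all others at 175.9 CPM or less, and within a number the KO and WT points are mixed.

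This comparison was made after the levels had been seen. In a fit with the 6 groups, replicate number was tested by edgeR's quasi-likelihood test with Benjamini-Hochberg adjustment over 21100 genes, and 2 of the 10 genes passed, Hspa1b (adjusted p = 4.18e-05) and Hspa1a (adjusted p = 0.0072), against 5.5% of all genes. Hspa1b had the rank 21 of 21100 by p. At an unadjusted p under 0.05 there were 5 of the 10 genes, Hspb1, Hsf1 and Dnajb1 besides these, against 21.9% of all genes. The fitted level of Hspa1b was lower by 2.40 on the log2 scale in replicate 2 than in replicate 1, by 4.90 in replicate 3 and by 2.53 in replicate 4. Libraries of 1 genotype and number may come from 1 mouse, and that test counts them as independent. In the MPP2 libraries alone, where each library would be another mouse, Hspa1b passed (edgeR adjusted p = 0.00977, 0.502% of genes called) and Hspa1a did not (edgeR adjusted p = 0.152). In MPP3 alone neither passed, with replicate 1 highest in both genotypes (edgeR adjusted p = 0.478 and 0.646, 0.0995% of genes called). With MPP2 and MPP3 counts summed per genotype and number, both passed (edgeR adjusted p = 0.0403 for Hspa1b and 0.0158 for Hspa1a, 0.447% of genes called). With KO LT-HSC 3 counted as replicate 4, both passed as well (edgeR adjusted p = 8.78e-06 and 0.000681, 6.1% of genes called).

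Other values also moved with the number, and their part in the HSP70 levels was not tested. Replicates 1 and 3, with the highest and the lowest Hspa1b, both had the Xist and Ddx3y counts given above for the 15 libraries outside replicate 2. In MPP2 the summed level of 6 megakaryocyte-erythroid markers was 264 and 576.5 CPM in KO replicates 1 and 2 and 2171 and 2304 in KO replicates 3 and 4, and WT MPP2 had 299, 195, 1468 and 1914 CPM. Immunoglobulin-rich libraries are among those of replicate 1. The sum of 6 B and plasma cell markers was 346300 CPM in KO MPP2 1 and 117200 CPM in KO MPP3 1. In WT MPP2 1 it was 22280 CPM, the highest of its group, and in WT MPP3 1 626 CPM, the lowest of its group. KO LT-HSC 1 and WT LT-HSC 1, at 808 and 486 CPM of Hspa1b, had 40.6 and 64.6 CPM of these markers. Hspa1b and Hspa1a kept their calls without the 3 libraries that stood apart (edgeR adjusted p = 0.000365 and 0.018, 2.71% of genes called). Between the high and low title numbers, the fitted difference of Hspa1b was -2.90 ± 1.31 (SE) in MPP2 and -2.49 ± 1.29 in MPP3 on the log2 scale (edgeR adjusted p = 0.22 and 0.325). These rest on single libraries, since leaving out 1 gave -4.10 (without KO MPP2 4) to -1.72 (without KO MPP2 1) in MPP2 and -4.08 (without KO MPP3 4) to -1.39 (without WT MPP3 1) in MPP3. None of the 10 genes passed in edgeR in either contrast, in which 6.31% and 0.545% of all genes were called. At an unadjusted p under 0.05 there were 2 of the 10 in each, against 22.7% and 18.7% of all genes. Hspb1 in MPP2, at 0 in the 4 libraries of high title number, was the member that did not overlap between title numbers, as for 12.9% of genes in MPP2 and 11.9% in MPP3.

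Hspa1a and Hspa1b lie next to each other on chromosome 17, both on the minus strand, at 34969190 to 34972156 and at 34956436 to 34959238 in GRCm38 (GENCODE M21). Their transcripts matched at 2184 of 2201 aligned bases (99.2%), so short reads from much of their length can fit both, and how such reads were counted is not given in the sources used here. Hspa1b exceeded Hspa1a in 21 of 21 libraries, by 2.34-fold to 174.5-fold (median 4.49), and the higher level of Hspa1b is uncertain for that reason. The sum of both does not depend on the split, and it was 293 to 947 CPM in replicate 1, 34.8 to 230.1 in replicate 2, 4.96 to 85.2 in replicate 3 and 52.7 to 105 in replicate 4. The bases upstream of the start sites are nearly the same as well, 247 of 250 being equal. They are shown because these are the 2 genes that moved together. The stretches are chr17:34972157-34972406 for Hspa1a and chr17:34959239-34959488 for Hspa1b in GRCm38.p6, minus strand, from RefSeq's start sites. Capitals mark the exact match to a heat shock element found in them, GAANNTTC, 104 bases before the start site.
Hspa1a: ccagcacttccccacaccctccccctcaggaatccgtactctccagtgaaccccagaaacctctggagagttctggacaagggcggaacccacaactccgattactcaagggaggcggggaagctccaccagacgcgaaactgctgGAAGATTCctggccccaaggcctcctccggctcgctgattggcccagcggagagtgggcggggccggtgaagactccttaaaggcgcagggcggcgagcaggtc
Hspa1b: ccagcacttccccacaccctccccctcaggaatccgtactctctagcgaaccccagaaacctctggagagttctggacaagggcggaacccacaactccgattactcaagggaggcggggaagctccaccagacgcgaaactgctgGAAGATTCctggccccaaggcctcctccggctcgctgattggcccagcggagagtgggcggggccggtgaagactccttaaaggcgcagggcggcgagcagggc

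RefSeq promoter windows (GRCm38.p6) from 250 bases before to 50 bases after the start site were at hand for 7 of the 10 genes, and not for Hsp90aa1, Hspa8 and Hsf1. Both strands were searched for heat shock elements of 2 inverted units, GAANNTTC or TTCNNGAA, and for 3-unit elements, in which a further inverted unit follows after 2 more bases, so that they contain the shorter forms. A 2-unit element was found in 6 of the 7 genes (all but Dnajb1) and in 17.0% of all genes with a window (15.1% of 32851 windows). A 3-unit element was found in Hspe1, Hspd1 and Hsph1 and in 0.662% of all genes (0.603% of windows), and not in Hspa1a, Hspa1b, Hspb1 or Dnajb1. Hspe1 and Hspd1 are transcribed away from each other on chromosome 1 and share an array of 4 units, shown from the Hspe1 strand (plus) at chr1:55088053-55088082, inside an annotated exon of Hspd1. The array of Hsph1 (minus strand, chr5:149636287-149636316) lies inside an annotated exon of Hsph1 itself, and Hspb1 (plus strand, chr5:135887801-135887830) has 2 separate elements before its start site. Capitals mark the elements in these 30 bases, to set beside the match shown for the HSP70 genes. Only exact GAA and TTC units were searched for, so elements with altered units are not marked in any of these sequences. The capitals therefore do not give the full number of units in a promoter. A match describes the letters and says nothing of HSF1 binding in these cells.
Hspe1: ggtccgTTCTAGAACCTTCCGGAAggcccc
Hsph1: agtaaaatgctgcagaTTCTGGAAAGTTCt
Hspb1: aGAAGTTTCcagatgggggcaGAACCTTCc

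Immediate early genes, which cells switch on within minutes of a stimulus, followed the replicate number too. Of the 17 tested, 11 passed the same test of the number (edgeR, 5.5% of all genes called), and the fitted level of 14 of the 17 was highest in replicate 1. This test, too, counts libraries that may share a mouse as independent. In edgeR, 2 of 17 passed in MPP2 alone (0.502% of genes called), 1 of 17 in MPP3 alone (0.0995%) and 4 of 16 with MPP2 and MPP3 counts summed per genotype and number (0.447%). Jun, a subunit of the AP-1 transcription factor, was at 94.1 to 292 CPM in replicate 1, 8.21 to 68.6 in replicate 2, 8.02 to 145 in replicate 3 and 16.7 to 70.5 in replicate 4 (edgeR adjusted p = 0.00631). Zfp36, which encodes an mRNA-destabilising protein, was at 74.0 to 237 CPM in replicate 1, 12.4 to 53.0 in replicate 2, 11.8 to 62.4 in replicate 3 and 10.7 to 53.0 in replicate 4 (edgeR adjusted p = 0.0031). Dusp1, a phosphatase of MAP kinases, and Btg2, an antiproliferative gene, also passed (edgeR adjusted p = 0.000156 and 0.00387). Each of these 4 genes was highest in replicate 1 in 6 of 6 groups. Without the 3 libraries that stood apart, 3 of the 17 passed (edgeR, 2.71% of genes called), and 14 of the 17 had an unadjusted p under 0.05, against 17.2% of all genes.

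**Figure D3:**
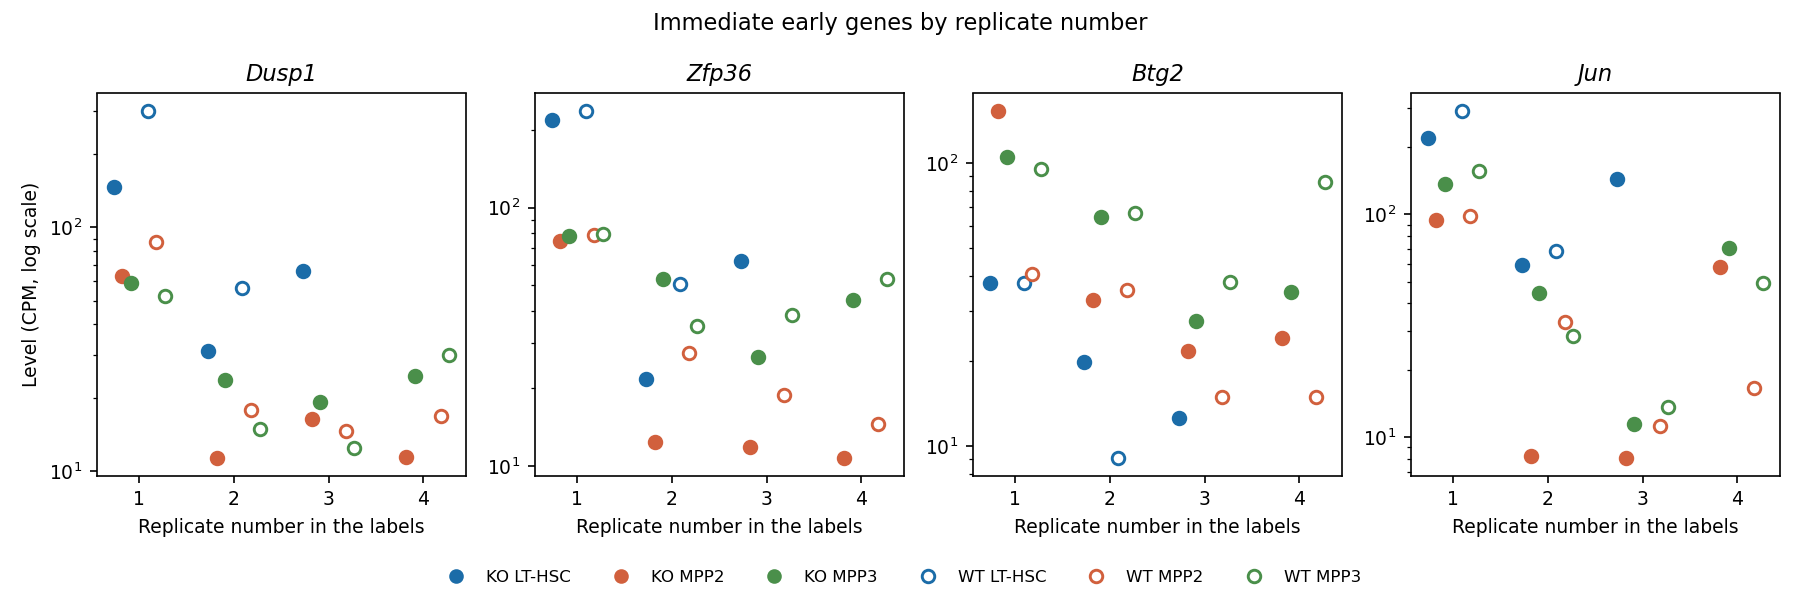
Levels of the immediate early genes Dusp1, Zfp36, Btg2 and Jun (CPM, log scale) are plotted against the replicate number, with KO libraries filled and WT libraries open, coloured by population. In each population and genotype the point of replicate 1 is the highest, and Zfp36 in replicate 1, at 74.0 CPM or more, lies above all others.

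Some chaperone genes outside the 10 moved with the number, in both directions. Of 18 further known HSF1 targets, 2 passed (edgeR, 5.5% of all genes called), Dnaja1 and Chordc1. Dnaja1, an HSP40 co-chaperone, was at 262 to 359 CPM in replicate 1, 124 to 212 in replicate 2, 185 to 254 in replicate 3 and 209 to 236 in replicate 4 (edgeR adjusted p = 0.00847), with no overlap between replicate 1 and the others. Chordc1, which encodes an HSP90 co-chaperone, was at 156 to 269 CPM in replicate 1 and at 101 to 170.0 CPM elsewhere (edgeR adjusted p = 0.0184). Of 20 cytosolic co-chaperones, 3 passed, Bag1, Bag2 and Cdc37. Bag1, a nucleotide exchange factor for HSP70, ran the other way, with 24.2 to 99.2 CPM in replicate 1, 95.6 to 230.0 in replicate 2, 251 to 458 in replicate 3 and 231 to 398 in replicate 4 (edgeR adjusted p = 0.000585). Canx and Dnajb9 passed among 17 chaperones of the endoplasmic reticulum, Dnaja3 among 8 mitochondrial chaperones, and none of the 8 subunits of the cytosolic chaperonin TRiC (edgeR adjusted p under 0.05 in each case that passed). Hsf1 itself did not pass (edgeR adjusted p = 0.0886), and its level in replicate 1 was the lowest of the group in 5 of 6 groups, at 32.4 to 55.1 CPM against 44.5 to 85.0 CPM in the other libraries.

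None of the 10 genes passed between KO and WT in any population (edgeR adjusted p at least 0.738). The test called 0.00474% of all genes for LT-HSC, 0.0142% for MPP2 and 0.00948% for MPP3, so that a call was rare anywhere. At an unadjusted p under 0.05 there were 1, 1 and 2 of the 10 genes, against 2.43%, 6.72% and 5.62% of all genes. The median log2 fold change of the 10 genes, KO over WT, was 0.22 for LT-HSC, 0.16 for MPP2 and 0.27 for MPP3, beside 0.00, 0.01 and 0.01 over all genes tested. All 10 were fitted higher in KO MPP3, 8 in KO LT-HSC and 7 in KO MPP2, against 50.5%, 50.3% and 51% of all genes. In KO MPP3 the changes of Dnajb1 and Hsp90aa1 were only 0.0052 and 0.0027. With replicate number as a block, Dnajb1 and Hspb1 were fitted lower in KO MPP3, at -0.011 and -0.421, and the other members higher. Without the 3 libraries that stood apart, 6 of the 10 were higher in KO MPP2 and in KO MPP3, with medians of 0.29 and 0.14, beside -0.048 and -0.105 over all genes. That leaves out replicate 1, where Hspa1a and Hspa1b were highest, in KO MPP2 and KO MPP3 but not in WT. In bulk libraries like these, fewer cells of a type and less RNA per cell cannot be told apart.

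Hsph1 was the member whose levels parted most cleanly by genotype. In MPP2 it was at 75.3, 109, 83.9 and 85.7 CPM in KO replicates 1 to 4, against 40.0, 35.6, 61.4 and 55.6 CPM in WT. In MPP3 it was at 47.0, 50.02, 67.2 and 57.5 CPM in KO, against 29.5, 31.1, 29.9 and 42.1 CPM in WT. In LT-HSC it was at 40.7, 49.2 and 87.9 CPM in KO, against 48.9 and 29.9 CPM in WT. All KO libraries lay above all WT libraries in MPP2 and in MPP3, as for 7 of 21100 genes (0.0332%), and the groups overlapped in LT-HSC. Of the 10 genes, Hsph1 alone had no overlap in MPP2 or in MPP3. KO lay above WT for 1.43% of genes in MPP2 and 1.07% in MPP3, and the groups did not overlap in either direction for 2.5% and 2.69%. Hsph1 was singled out after its values were seen, and MPP2 and MPP3 of 1 number may share a mouse.

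The fitted change of Hsph1 did not pass over all genes. The log2 fold change, KO over WT, was 0.88 ± 0.25 (SE) in MPP2 and 0.74 ± 0.25 in MPP3, and the unadjusted p was 0.00212 and 0.00723 (edgeR adjusted p = 0.738 and 0.88). In LT-HSC it was 0.59 ± 0.32 (edgeR adjusted p = 1), with 0.19 without KO LT-HSC 3, 0.28 without WT LT-HSC 2 and 0.99 without WT LT-HSC 1. Within the high title numbers it was 0.54 ± 0.26 in MPP2 and 0.79 ± 0.26 in MPP3, and within the low ones 1.29 ± 0.26 and 0.68 ± 0.26. With MPP2 and MPP3 counts summed per genotype and number, giving 4 KO and 4 WT sums, it was 0.83 ± 0.17, of rank 14 among 17912 genes (edgeR adjusted p = 0.995, and 0.011 by DESeq2). Leaving out the 3 libraries that stood apart gave 0.93 ± 0.27 in MPP2 and 0.91 ± 0.30 in MPP3 (edgeR adjusted p = 0.44 and 0.39).

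**Figure D4:**
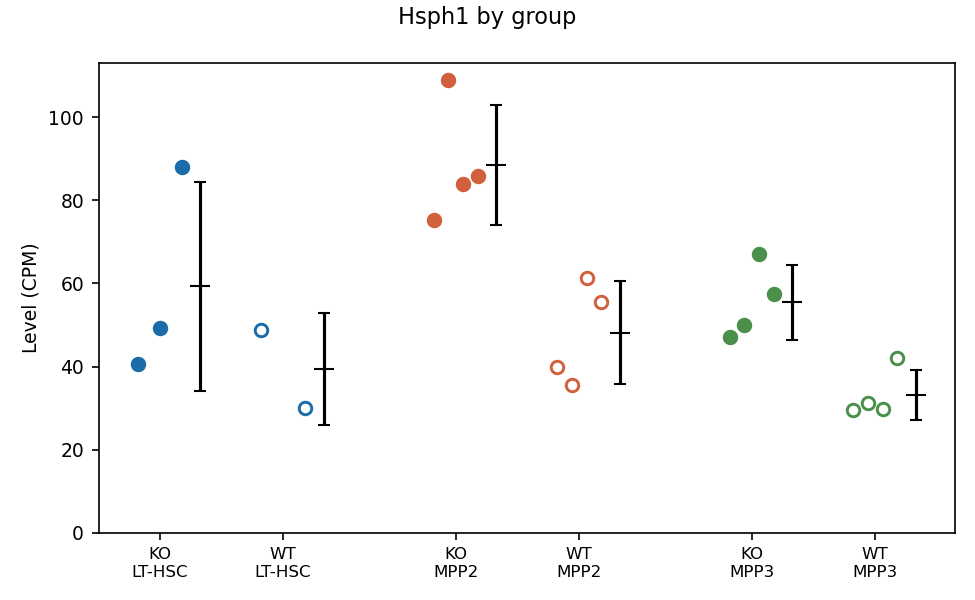
Hsph1 levels (CPM) are plotted per library for KO (filled) and WT (open) LT-HSC, MPP2 and MPP3, with the mean and SD of each group at its right. KO points lie above WT points in MPP2 (75.3 CPM and more against 61.4 CPM and less) and in MPP3 (47.0 CPM and more against 42.1 CPM and less), and the groups overlap in LT-HSC.

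The chaperonin genes showed smaller differences between genotypes. Hspe1 was at 268, 314 and 249 CPM in KO LT-HSC, against 194 and 159 CPM in WT LT-HSC, so that the groups did not overlap, as for 18.3% of genes in either direction and 7.53% with KO above WT. Its log2 fold change there was 0.65 ± 0.24 (edgeR adjusted p = 1, unadjusted p = 0.013). In MPP2 Hspe1 averaged 343 ± 93.6 CPM in KO and 312 ± 17.3 CPM in WT (SD, n = 4 each), and in MPP3 254 ± 42.1 CPM in KO and 193 ± 22.2 CPM in WT (SD, n = 4 each), with overlap in both. Hspd1, its partner, averaged 319.5 ± 64.4 CPM in KO LT-HSC (n = 3) and 253 ± 49.5 CPM in WT LT-HSC (n = 2), 397 ± 101 and 324 ± 50.7 CPM in KO and WT MPP2, and 274 ± 88.4 and 255 ± 21.6 CPM in KO and WT MPP3 (SD, n = 4 each).

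The HSP70 genes overlapped between genotypes in every population. The log2 fold change of Hspa1b, KO over WT, was 0.20 ± 1.79 for LT-HSC, 0.00 ± 1.39 for MPP2 and 0.92 ± 1.397 for MPP3, and that of the sum of Hspa1a and Hspa1b was 0.05 ± 1.81, -0.04 ± 1.398 and 1.01 ± 1.41 (edgeR adjusted p = 1 in each case). These SEs hold the spread between replicate numbers, so the fits leave room for changes of several fold. Without the 3 libraries that stood apart, the change of Hspa1b was -1.78 ± 1.42 in MPP2 and -0.90 ± 1.58 in MPP3. That of Hspa1a in MPP3 went from 1.34 ± 1.60 to -0.52 ± 1.87. This leaves out replicate 1, where both genes were highest, in KO MPP2 and KO MPP3 but not in WT. With replicate number as a block, Hspa1b in LT-HSC was 1.19 ± 0.63, or 0.37 ± 0.52 with KO LT-HSC 3 counted as replicate 4 (edgeR adjusted p = 1 in both). KO exceeded WT of the same number for Hspa1b in 2 of 2 pairs in LT-HSC, 1 of 4 in MPP2 and 3 of 4 in MPP3. Hspa8 was at 821 to 920.5 CPM in KO LT-HSC and 634 to 872.5 CPM in WT LT-HSC, 773 to 1215 and 845 to 996 CPM in KO and WT MPP2, and 573 to 1125 and 736.5 to 931 CPM in KO and WT MPP3. Its lowest library in each KO progenitor group was 1 of the 3 that stood apart.

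Dnajb1, Hsp90aa1 and Hsf1 overlapped between KO and WT in every population. Dnajb1 averaged 132 ± 29.6 CPM in KO LT-HSC (n = 3) and 142 ± 58.4 CPM in WT LT-HSC (n = 2), 111 ± 13.7 and 115.5 ± 12.9 CPM in KO and WT MPP2, and 107 ± 19.0 and 107 ± 12.9 CPM in KO and WT MPP3 (SD, n = 4 each). Hsp90aa1 was highest in KO MPP2 2, at 928 CPM, and at 329 to 681 CPM in the other 20 libraries. Hsf1 was at 54.8 to 82.4 CPM in KO LT-HSC and 53.2 to 63.6 CPM in WT LT-HSC, 35.8 to 85.0 and 32.4 to 71.4 CPM in KO and WT MPP2, and 52.2 to 81.8 and 49.7 to 79.0 CPM in KO and WT MPP3. Hspb1 was near the limit of detection, with 0 counts in 9 of 21 libraries, and its highest level was 3.15 CPM, 92 counts, in KO LT-HSC 2. All 5 libraries of replicate 3 had 0 Hspb1 counts, where the limit of 3 counts is 0.0985 to 0.106 CPM.

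**Figure D5:**
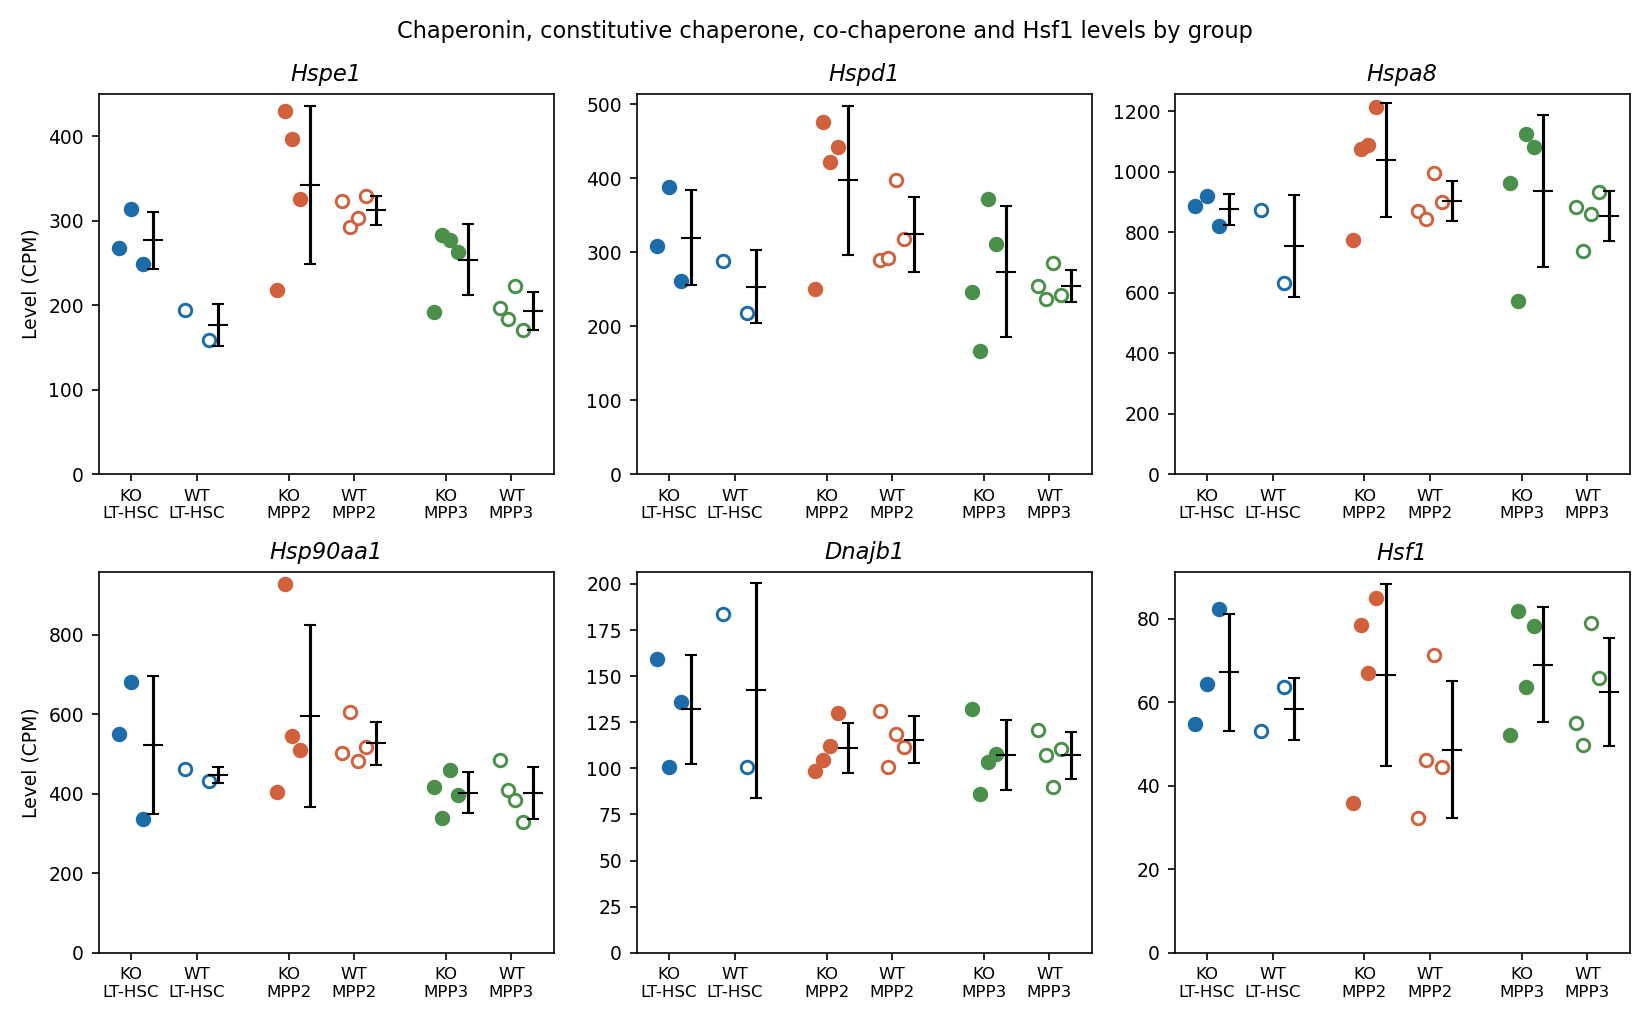
Levels (CPM) of Hspe1, Hspd1, Hspa8, Hsp90aa1, Dnajb1 and Hsf1 are plotted per library for KO (filled) and WT (open) LT-HSC, MPP2 and MPP3, with the mean and SD of each group at its right. KO and WT points overlap for each gene and population except Hspe1 in LT-HSC, and for Hspe1 the WT MPP2 points, at 292 CPM and more, lie above the WT MPP3 points, at 222.5 CPM and less, while the KO points of these populations overlap.

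The effect of Phf6 loss was not found to differ between populations for any of the 10 genes. The difference of the KO effects passed for none of them and for none of 21100 genes in edgeR (0% called), with 0 of the 10 at an unadjusted p under 0.05, against 3.6% of all genes for LT-HSC minus MPP2, 2.47% for LT-HSC minus MPP3 and 4.47% for MPP2 minus MPP3. For Hsph1 the difference of the effects in MPP2 and MPP3 was 0.14 ± 0.35 on the log2 scale.

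Between populations, the chaperonin genes and Hsph1 were higher in MPP2 than in MPP3 of the same genotype and number in 8 of 8 pairs each, as for 5.38% of all genes. In KO, Hspe1 was at 218.5, 430.5, 396 and 326 CPM in MPP2, against 192, 283.5, 277 and 263 CPM in MPP3, with overlap. In WT it was at 324, 292, 304 and 329.6 CPM in MPP2, against 196.5, 183, 222.5 and 171 CPM in MPP3. WT LT-HSC, at 194 and 159 CPM, overlapped with WT MPP3, and both lay below all WT MPP2 libraries. Groups did not overlap, in either direction, for 26.8% of all genes between WT LT-HSC and WT MPP2 and for 10.2% between WT MPP2 and WT MPP3. The log2 fold change of Hspe1, MPP2 over MPP3, was 0.43 ± 0.18 in KO cells (edgeR adjusted p = 0.283) and 0.69 ± 0.18 in WT cells (edgeR adjusted p = 0.0685). That of LT-HSC over MPP2 was -0.31 ± 0.20 in KO cells (edgeR adjusted p = 0.467) and -0.82 ± 0.23 in WT cells (edgeR adjusted p = 0.109).

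None of the 10 genes passed between populations (edgeR adjusted p at least 0.0685), where 1.81%, 2.64% and 0.886% of all genes were called in KO for LT-HSC over MPP2, LT-HSC over MPP3 and MPP2 over MPP3, and 0.63%, 1.1% and 1.2% in WT. At an unadjusted p under 0.05 there were 1, 0 and 4 of the 10 genes in KO, against 16.3%, 15.6% and 14.5% of all genes, and 1, 0 and 2 in WT, against 13%, 9.2% and 13.5%. When the 3 libraries that stood apart, all of them KO, were left out, the call for Hspe1 was made in WT for MPP2 over MPP3 (0.68, edgeR adjusted p = 0.00839) and for LT-HSC over MPP2 (-0.79, edgeR adjusted p = 0.0141). Hsph1 in MPP2 over MPP3 was 0.67 ± 0.25 in KO cells and 0.54 ± 0.25 in WT cells (edgeR adjusted p = 0.219 and 0.344), and Hspd1 was 0.54 ± 0.23 in KO cells and 0.35 ± 0.23 in WT cells (edgeR adjusted p = 0.286 and 0.543). Hspa1b was higher in LT-HSC than in MPP2 of the same genotype and number in 5 of 5 pairs, as for 10.3% of all genes, with log2 fold changes of 1.39 ± 1.49 in KO cells and 1.19 ± 1.64 in WT cells (edgeR adjusted p = 0.71 and 0.836). With replicate number as a block, these changes were 1.95 ± 0.51 in KO cells and 0.67 ± 0.56 in WT cells (edgeR adjusted p = 0.0537 and 0.681). That block sets KO LT-HSC 3, at 67.1 CPM of Hspa1b, with KO MPP2 3, at 6.81 CPM. By its title number KO LT-HSC 3 may belong with KO MPP2 4, at 65.0 CPM, so the KO change depends on the number it is given. Per kilobase of exon, the mean order within each of the 6 groups began with Hspa8 or Hspe1 and ended with Hspb1.

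Wider chaperone lists, chosen with earlier results of these data known, gave no call between KO and WT in any population (edgeR). Among 17 chaperones of the endoplasmic reticulum, 15 were fitted higher in KO in MPP2 and in MPP3, and 14 in LT-HSC, with median log2 fold changes of 0.56, 0.28 and 0.19 beside 0.01, 0.01 and 0.00 over all genes. Plasma cells are rich in these chaperones, and the immunoglobulin-rich libraries are both KO; their part in these values was not tested. Without the 3 libraries that stood apart, 12 of 17 were higher in KO MPP2 and 13 in KO MPP3, with medians of 0.22 and 0.27 beside -0.048 and -0.105 over all genes. The smallest p values among those with at least 10 CPM belonged to Dnajb11 and Creld2 in MPP2, at 0.71 ± 0.27 and 1.26 ± 0.50 (edgeR adjusted p = 0.738 for both). Of all genes, 50.3%, 51% and 50.5% were fitted higher in KO LT-HSC, MPP2 and MPP3, which is the share to set beside the counts for each list. The 18 further HSF1 targets had 11, 10 and 10 members fitted higher in KO LT-HSC, MPP2 and MPP3, with medians of 0.09, 0.10 and 0.01. The 20 cytosolic co-chaperones had 14, 10 and 12, the 8 TRiC subunits 8, 8 and 5, the 8 mitochondrial chaperones 6, 7 and 6, the 3 tested of the HSF family 1, 1 and 3, and the 17 immediate early genes 6, 9 and 6. In KO MPP3 without the 3 libraries that stood apart, 8 of 8 TRiC subunits were fitted higher (median 0.35, beside -0.105 over all genes) and 1 of 3 of the HSF family (median -0.55). A fit of all libraries with replicate number as a block gave 1 of 8 TRiC subunits higher in KO MPP3. The median was then -0.04, beside -0.024 over all genes. For the HSF family that fit gave 2 of 3 higher (median 0.03). Without the 3 libraries that stood apart, 1 of the 17 immediate early genes was fitted higher in KO MPP2 and 4 in KO MPP3, with medians of -0.71 and -0.54. That leaves out replicate 1, where these genes were highest, in KO MPP2 and KO MPP3 but not in WT. With all libraries and replicate number as a block, 8 of 17 were higher in KO MPP2 and 7 in KO MPP3, with medians of -0.18 and -0.07.

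Between populations, a few genes of these lists passed. Nr4a1, an immediate early nuclear receptor, was higher in LT-HSC than in MPP2 in KO and in WT, by 3.54 ± 0.69 and 3.52 ± 0.73 on the log2 scale (edgeR adjusted p = 0.0116 and 0.0342), and than in MPP3 in KO, by 2.84 ± 0.67 (edgeR adjusted p = 0.0256). Its levels were 3.43 to 23.2 CPM in KO LT-HSC and 4.28 to 16.0 CPM in WT LT-HSC, and at most 1.81 CPM in MPP2. Ier2 passed in KO LT-HSC over MPP2 (1.32 ± 0.33, edgeR adjusted p = 0.0492) and Junb in WT LT-HSC over MPP2 (2.52 ± 0.55, edgeR adjusted p = 0.0404). Fitted values of 15 to 16 of the 17 immediate early genes were higher in LT-HSC than in MPP2 or MPP3 in each genotype, as for 46.9% to 49.5% of all genes. Replicate 1 is 1 of 3 KO and 1 of 2 WT LT-HSC libraries but 1 of 4 in each MPP2 and MPP3 group. With replicate number as a block, 16 of 17 were higher in LT-HSC than in MPP2 in KO and in WT, and than in MPP3 it was 15 in KO and 12 in WT. Hscb, a mitochondrial co-chaperone for iron-sulphur cluster assembly, was higher in WT MPP2 than in WT MPP3 (1.01 ± 0.21, edgeR adjusted p = 0.022). Dedd2, a death effector domain gene counted among HSF1 targets, was lower in KO LT-HSC than in KO MPP3 (-0.86 ± 0.20, edgeR adjusted p = 0.0246) and lower in WT MPP2 than in WT MPP3 (-0.84 ± 0.18, edgeR adjusted p = 0.0316).

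Across the 21 libraries, log2 CPM of Hspa1a and Hspa1b had a Pearson correlation of 0.92, which reads shared between them would raise. Hspd1 and Hspa8 had 0.85, and Hspd1 and Hspe1 0.71. Hspa1b had -0.44 with Hsf1 and 0.47 with Dnajb1. These are descriptions over libraries that may share mice and that share title runs. The genes outside the lists whose log2 CPM was most like the mean of Hspa1a, Hspa1b, Hsph1 and Dnajb1 were Foxo1 (0.80), Plekha8 (0.77), Pdp2 (0.77), Spty2d1 (0.76) and Ccrl2 (0.75). Foxo1, a forkhead factor active in quiescent stem cells, was at 14.3 to 58.2 CPM in replicate 1, 9.3 to 29.4 in replicate 2, 4.96 to 22.1 in replicate 3 and 7.14 to 22.0 in replicate 4, so that its ranges overlapped.

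Processed copies of these genes could also take or lend reads. Rows of other genes with at least 90% identity over 200 bases summed to 9.0% of the mean CPM of Hsp90aa1, 8.29% of that of Hspd1, 7.83% of that of Hspb1 and 1.11% of that of Hspa8. For Hspe1 the share was 0.116%, and Hsph1, Dnajb1 and Hsf1 had no such copy.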

How the data were processed

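Bulk RNA was sequenced from 21 libraries of sorted cells made with Nextera XT. The authors deposited 1 table of raw gene counts, with 54446 rows and 21 columns. STAR and mm10 are named per the submitters' processing notes, and the counting program, its version, the annotation and the treatment of reads that map to several places were not given in the sources used here. Gene IDs were matched to symbols for 54409 rows, and the other 37 were kept by ID.

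The 10 members and all lists were chosen with earlier results of these data known. Counts were tested with edgeR 4.0.16 (R 4.3.3; TMM scaling, quasi-likelihood test, robust) in 1 fit of 21 libraries in 6 groups, after filterByExpr with a minimum count of 10 kept 21100 genes. Adjusted p values are Benjamini-Hochberg over all genes tested, with a threshold of 0.05, and an SE is the log2 fold change divided by the square root of F. Nothing in the labels says that libraries of a group came from separate mice, so p values measure only the spread between these libraries, which may be technical. No 2 libraries held identical values. DESeq2 1.42.0 and limma 3.58.1 were alternatives, with other scalings, no filter, blocks and left-out libraries, and the edgeR procedure was tested on simulated data. The test of replicate number and the sums of MPP2 and MPP3 counts per genotype and number were added after the data were seen. Deviations from group means correlated in same-numbered KO and WT libraries, by 0.184 to 0.264 in MPP2. In MPP3 it was 0.0749 to 0.129, and in LT-HSC 0.0349 to 0.037. Other MPP2 pairs averaged -0.0749, an average that the use of group means pushes down. Within a run of title numbers, other pairs reached 0.231 (KO MPP2 4 with WT MPP2 3) and 0.181 (KO MPP2 1 with WT MPP2 2). These values come from the data and not from the labels, and do not part replicate number from title run.

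All members were named. Of each list, up to 4 genes past the threshold with the smallest p were named per comparison, or up to 2 with the smallest p and at least 10 CPM where none passed, and the 5 genes most like 4 members over 21 libraries. Promoter windows came from RefSeq, and transcripts were compared with blastn 2.17.0. Errors are SEs of the edgeR fit or SDs between libraries, and the limit of 3 counts covers counting error only.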

Additional observations from a re-analysis of the deposited data

Results flagged for a closer look

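In 40 groups of 4 libraries, 1 for each member in KO and WT MPP2 and MPP3, 5 had a library far from the other 3 of its group. Chance gives about 1 in 20 for independent, normally distributed values. The CPM values need not be so distributed, and the 40 groups share libraries, so the 5 are not a measured excess. Hspa1b was at 400 CPM in KO MPP2 1, against 6.81 to 65.0 CPM in the other 3, at 404 CPM in WT MPP2 1, against 11.5 to 58.3 CPM, and at 240 CPM in WT MPP3 1, against 9.58 to 42.3 CPM. These 3 libraries are all of replicate 1. Hsph1 was at 42.1 CPM in WT MPP3 4, against 29.5 to 31.1 CPM in the other WT MPP3 libraries, and all 4 lay below the KO MPP3 libraries. Hspb1 was at 0.258 CPM in KO MPP2 1, which is 4 counts, against 0 to 0.0405 CPM.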

How the results depend on the processing

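For 31 values, 565 recomputed ones kept direction and call, 23 counts moved, 16 values passed the threshold that had not, and none reversed. The 31 values leave out the KO over WT changes of Hspa1a and Hspa1b. In MPP3 both of these changed sign without the 3 libraries that stood apart. Hspe1 in WT MPP2 over MPP3 passed, making 1 member called, with the replicate block (0.70, adjusted p = 0.0452), the block with KO LT-HSC 3 as number 4 (0.70, 0.0345), a block within genotype (0.70, 0.0446, and 0.70, 0.0313 with that change), a title-number term (0.69, 0.0452), DESeq2 (0.68, 0.00986), limma voom (0.70, 0.0455), only those groups (0.68, 0.049) and without the 3 libraries that stood apart (0.68, 0.00839). Libraries of 1 number in these groups have title numbers that run on and may share a mouse, which no label states, and their deviations correlated by 0.0631 to 0.136. Hspe1 in WT LT-HSC over MPP2 passed, again 1 member, in DESeq2 (-0.79, adjusted p = 0.0168), voom (-0.83, 0.0492) and without those 3 (-0.79, 0.0141). For the replicate number, 1 member passed in MPP2 only, 0 in MPP3 only, 1 with Hspa1a and Hspa1b added and 4 by DESeq2, with 2 to 3 when any 1 library was left out. Between title numbers in MPP2, 3 passed with no filter (Hspa1b -2.80, 3.68e-31), 1 in DESeq2 (Hspa1b -2.94, 0.0316), 1 without those 3 libraries and 0 to 1 with any 1 left out (1 without KO MPP2 2). In MPP3, 2 passed with no filter (Hspa1b -2.46, 4.32e-24) and 0 to 1 with any 1 left out (1 without KO MPP3 1). With the filter, Hspa1b had much the same changes, -2.90 in MPP2 and -2.49 in MPP3, and did not pass (edgeR adjusted p = 0.22 and 0.325). Its levels overlapped between title numbers in both populations, so the very small p values with no filter are not read as stronger evidence. Hsph1, summed per genotype and number, passed in DESeq2 (0.84, 0.011), 1 member. The causes of these changes were not tested. The block changed no other call among the 10 genes. Of the 17 immediate early genes it called 7 against 2 without it in KO LT-HSC over MPP2, 6 against 1 in KO LT-HSC over MPP3, 3 against 2 in WT LT-HSC over MPP2 and 4 against 0 in WT LT-HSC over MPP3 (edgeR). With it, Hspa1b in KO over WT was 1.19 ± 0.63 for LT-HSC, -0.09 ± 0.45 for MPP2 and 1.04 ± 0.47 for MPP3 (edgeR adjusted p = 1, 0.996 and 0.866). Depth limits Hspb1, at 0 counts in 9 libraries, and 2 WT LT-HSC libraries limit every comparison with them.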
